A study of Mus musculus with 18 samples.

Results

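The hotspots described here were 1513 sites of meiotic DNA breakage that were broken almost only on the B6 chromosome in the testes of (B6xCAST)F1 male mice. They were chosen from the 18740 autosomal hotspots of the DMC1 map of that hybrid by a pair of criteria. The B6 share of DMC1 reads, which is the fraction of reads assigned by the authors to the B6 chromosome, had to be above 0.9. In addition, no hotspot centre could lie within 1000 bp in the maps of B6/B6 mice, PWD/PWD mice or the infertile (PWDxB6)F1 hybrid. The 1513 sites made up 8.07% of the map (Wilson 95% interval 7.69 to 8.47%, covering the counting of hotspots only). They are called CAST-cross-only B6-chromosome hotspots below. Sites with a B6 share from 0.1 to 0.9 numbered 12102 and are called symmetric, because both chromosomes were broken there.

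The series mapped DMC1 and the histone mark H3K4me3 in testes of mice that differed in strain background and in their Prdm9 alleles, with the allele called Humanized among them. The hybrid with the CAST chromosome was B6CASTF1 with the Prdm9 genotype B6/CAST. The maps used to remove shared sites came from C57BL/6J with B6/B6, PWD/PhJ with PWD/PWD, and PWDB6F1 with PWD/B6, the hybrid labelled infertile. The 5 maps not used in the choice came from B6PWDF1 with B6/PWD (the reciprocal hybrid), PWDB6F1 with PWD/Humanized (the rescue hybrid), B6PWDF1 with Humanized/PWD, C57BL/6J with Humanized/Humanized and C57BL/6J with B6/Humanized. The mice of the DMC1 maps were males of about 10 weeks, except for the B6/B6 mice, whose library came from another submitter and has no age used here. The mice of the H3K4me3 tables were adults with no age in weeks used here. Each DMC1 map came from 1 library of whole testis, so no difference below has a replicate check, and no test was made. Read depth per map is unknown. None of the 3 maps used to remove shared sites held a CAST chromosome or a CAST allele of Prdm9. The 9 maps held 165207 autosomal hotspots in all.

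PRDM9 is a meiotic protein that binds DNA through an array of zinc fingers and places H3K4me3 on the nucleosomes beside its binding site. A double-strand break is then made there by SPO11, its ends are trimmed to single strands, and DMC1 loads on these to search for the homologous chromosome. The zinc-finger array differs between mouse subspecies, so each allele sends breaks to its own set of sites, and a sequence difference between the parents can leave only one parental chromosome bound. The DMC1 signal of a hotspot rises both with the number of breaks and with how long they stay unrepaired.

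Sequence at the centres of the CAST-cross-only B6-chromosome hotspots was read from the RefSeq assembly GRCm38.p6, the mm10 build. This assembly comes from C57BL/6J, so the letters are those of the B6 chromosome on which these sites were broken. The 8-base words within 200 bp at the centre were ranked on the sites of odd-numbered autosomes, by their count there over their count in flanks 1000 bp away. The first was AGGTCACA, searched on both strands and so also as TGTGACCT. The 10 hottest sites with this word outside annotated exons follow, so that the shared letters can be seen. Each runs 5′ to 3′ on the strand given, aligned on the word, which is in capitals.
Adamts20 site, chr15:94143189-94143236, plus strand: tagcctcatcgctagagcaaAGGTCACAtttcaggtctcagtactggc
Atg10 site, chr13:90997067-90997114, plus strand: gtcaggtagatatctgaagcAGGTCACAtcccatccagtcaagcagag
Mpv17l site, chr16:13962146-13962193, minus strand: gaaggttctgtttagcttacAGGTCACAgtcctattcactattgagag
Capza3 site, chr6:140191543-140191590, plus strand: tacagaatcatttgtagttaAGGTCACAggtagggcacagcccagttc
Col25a1 site, chr3:130284613-130284660, minus strand: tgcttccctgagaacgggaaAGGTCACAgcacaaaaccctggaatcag
Dnajc21 site, chr15:10432859-10432906, plus strand: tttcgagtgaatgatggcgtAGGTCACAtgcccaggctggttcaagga
Prima1 site, chr12:103266219-103266266, plus strand: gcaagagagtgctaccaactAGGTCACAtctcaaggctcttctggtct
Myo3b site, chr2:70131045-70131092, plus strand: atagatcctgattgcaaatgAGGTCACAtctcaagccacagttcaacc
A730009L09Rik site, chr16:84297268-84297315, plus strand: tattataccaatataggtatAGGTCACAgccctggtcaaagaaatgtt
Kcna1 site, chr6:126638613-126638660, plus strand: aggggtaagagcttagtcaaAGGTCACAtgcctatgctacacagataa
Of these 10 sequences, 8 had C at the ninth base after the word and 6 had T directly after it. The T did not hold over all sites with the word on odd-numbered autosomes, where G was the commonest base there (21 of 43). On even-numbered autosomes G was there in 14 of 36. The genes are those that hold the site or lie nearest to it.

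Longer stretches show how the words lie at a centre, with any of the 10 highest-ranked words in capitals, overlapping words included. The hottest site of all, near Lhfp, held none of them. The site in an intron of Atg10 was picked because it held the first word. The symmetric site near Ctnnd2, unmatched in the same 3 maps, was picked as the hottest such site that holds the first word outside annotated exons.
Lhfp site, chr3:53353819-53354018, plus strand: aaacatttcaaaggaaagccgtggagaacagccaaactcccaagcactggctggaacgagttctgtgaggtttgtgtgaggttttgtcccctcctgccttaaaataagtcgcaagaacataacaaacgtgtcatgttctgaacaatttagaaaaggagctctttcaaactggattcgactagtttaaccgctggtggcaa
Atg10 site, chr13:90996968-90997167, plus strand: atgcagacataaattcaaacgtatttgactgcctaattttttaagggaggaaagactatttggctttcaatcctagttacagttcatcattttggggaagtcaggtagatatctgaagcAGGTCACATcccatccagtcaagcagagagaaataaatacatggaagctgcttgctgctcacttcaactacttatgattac
Ctnnd2 site, chr15:30527731-30527930, plus strand: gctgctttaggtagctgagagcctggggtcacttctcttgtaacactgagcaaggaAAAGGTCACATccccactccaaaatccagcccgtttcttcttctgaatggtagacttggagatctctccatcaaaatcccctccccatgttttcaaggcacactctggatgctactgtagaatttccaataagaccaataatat

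The B6 share of the 1513 sites ran from 0.901 to 1, with a median of 0.966 and quartiles of 0.94 and 0.982. A share of exactly 1 was listed for 20 sites. The number of informative reads behind each share is not given in the sources used here, so the shares carry no interval. These shares chose the sites and are given as a description. Of the 16994 hotspots with a B6 share, 2249 exceeded 0.9, a background of 13.2%, and 12102 were symmetric, a background of 71.2%. The 99 sites with shares up to 0.91 had a median heat of 49.2, and the 86 unmatched hotspots just below the limit, from 0.89 to 0.9, had 46.5. Heat is the DMC1 signal that the authors gave to each hotspot, on a relative scale.

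The removal of shared sites acted unequally on the chromosomes. Of the 2249 hotspots with a share above 0.9, 736 (32.7%) had a centre in at least 1 of the 3 maps, and of the 2643 with a share below 0.1, 1913 (72.4%) did, against 38.1% of all hotspots of the map. The B6/B6 map held 136 (6.05%) of the hotspots with a share above 0.9, and 1071 (40.5%) of those with a share below 0.1, against 17.9% of all hotspots. The PWD/PWD map ran the other way, with 408 (18.1%) above 0.9 and 136 (5.15%) below 0.1, against 12.8% of all hotspots. The infertile hybrid held 584 (26.0%) and 1739 (65.8%), against 31.5%. Before removal, hotspots used on the B6 chromosome were thus fewer than those used on the CAST chromosome, and after it they were 1513 against 730. The unmatched sites with a share below 0.1 are called CAST-cross-only CAST-chromosome hotspots below. The ratio of 2.07 between the unmatched counts is therefore set in part by which maps were used for removal. The CAST-cross-only B6-chromosome sites outnumbered the CAST-chromosome sites on 19 of 19 autosomes and were 67.5% of both together (Wilson 95% interval 65.5 to 69.4%).

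The CAST-cross-only B6-chromosome hotspots were among the hot sites of the map. Their median heat was 120.7 (quartiles 62.5 and 204.7, range 6.2 to 597.3), against 31.6 for symmetric sites (quartiles 17.7 and 73.1). The ratio of the medians was 3.82, and it lay between 3.18 and 5.10 on single autosomes, with the median higher on 19 of 19. CAST-cross-only CAST-chromosome sites had a median of 77.4, so the B6-chromosome sites were 1.56 times as hot as these. The 736 removed hotspots with a share above 0.9 had a median of 152.65. The 1513 sites carried 14.7% of the heat of the map with 8.07% of its hotspots, and the symmetric sites carried 49.4% with 64.6%.

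**Figure D1:**
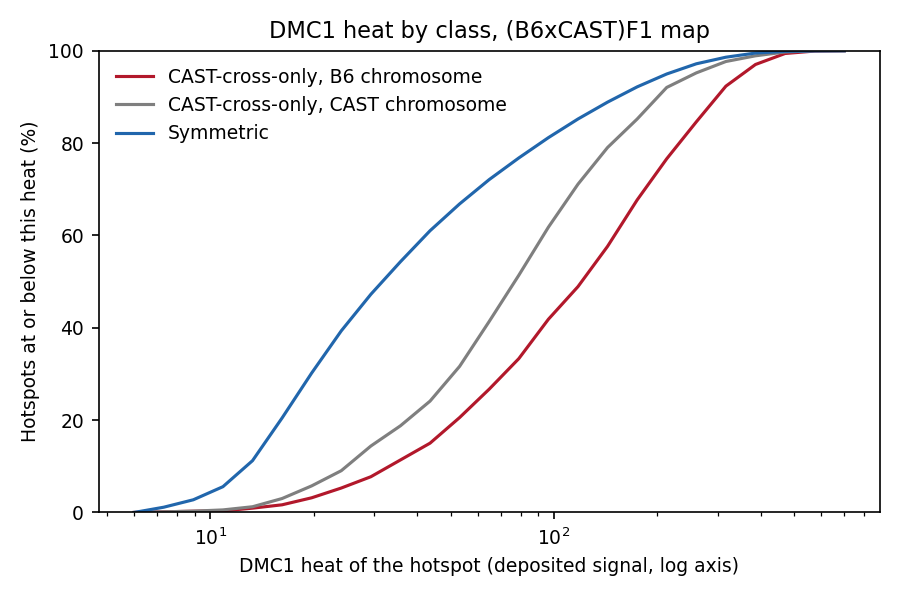
Cumulative distribution of DMC1 heat in the (B6xCAST)F1 map, with heat on a log axis (the authors' relative signal) and the percentage of each class at or below it on the vertical axis. The curve of the 1513 CAST-cross-only B6-chromosome hotspots (median 120.7) lies to the right of that of the 730 CAST-chromosome sites (median 77.4) and of the 12102 symmetric sites (median 31.6).

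The size of this difference depended on the cold end of the map, where nearly all hotspots were symmetric. In the coldest quartile of the map, with heat from 6.1 to 18.8, 44 of 3483 hotspots with a B6 share were CAST-cross-only B6-chromosome sites (1.26%) and 3363 were symmetric (96.6%). In the second quartile these were 169 (3.87%) and 3820 (87.4%), and in the third 470 (10.3%) and 2910 (64.0%). In the hottest quartile, from 107.1 upwards, they were 830 (18.1%) and 2009 (43.7%). So 54.9% of the CAST-cross-only B6-chromosome sites and 16.6% of the symmetric sites were in the hottest quartile. Among hotspots at or above the median heat of the map, the ratio of median heats was 1.56. In the coldest quartile 25.2% of hotspots had no B6 share, against 1.96% in the hottest. The part of read number in the B6 shares of cold sites was not tested.

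**Figure D2:**
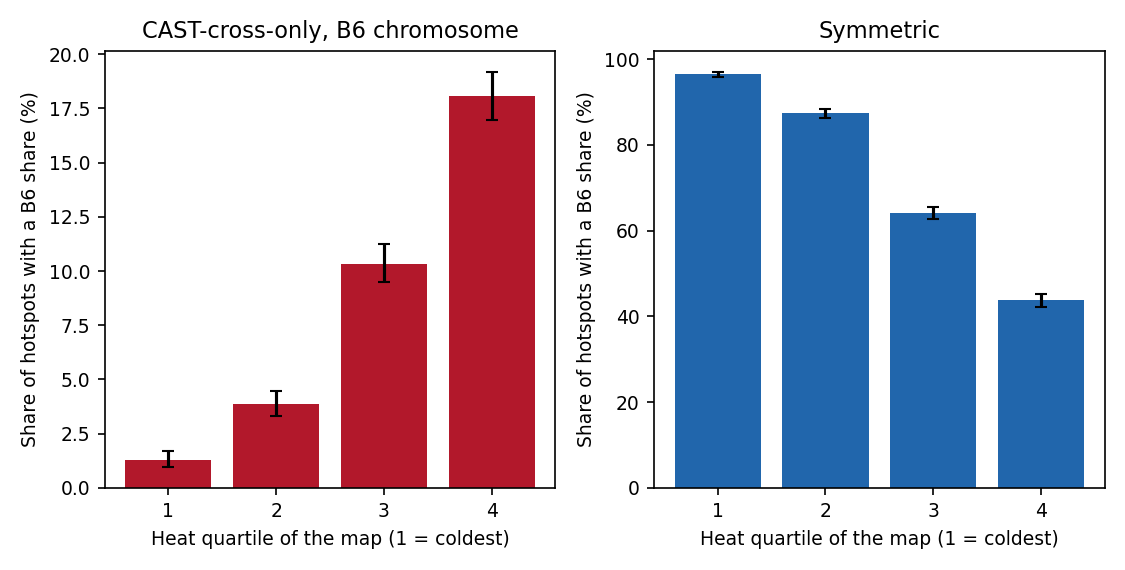
Share of hotspots with a B6 share that were CAST-cross-only B6-chromosome sites (left panel) or symmetric (right panel), by heat quartile of the (B6xCAST)F1 map, with Wilson 95% intervals as bars. The first went up over the quartiles to 18.1%, and the second went down to 43.7%, on vertical axes of different scale.

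Among the 1513 sites themselves, median heat was higher in bands of higher B6 share. Median heat was 50.6 at shares above 0.9 and up to 0.92 (n = 181), 63.1 up to 0.94 (n = 199), 89.3 up to 0.96 (n = 276), 129.3 up to 0.98 (n = 454) and 218.3 up to 1 (n = 403). Of the 100 hottest hotspots of the map, 13 were CAST-cross-only B6-chromosome sites and 22 were symmetric. Of the 1000 hottest, 216 and 320 were. At the top of the list the symmetric sites reached the same heat: the hottest CAST-cross-only B6-chromosome site had 597.3, and the hottest symmetric site away from high input, near Tpd52, had 590.3. High input means a bin whose input count was over 10 times the median bin of an H3K4me3 table. It applied to 44 hotspots of the map, to 0 of the 1513 and to 5 symmetric sites, of which 1, with a heat of 1145.5, was hotter than the site near Tpd52. A hotspot could be flagged only with such a bin within 1000 bp, and the bins were centred on hotspots of other genotypes. Few of the 1513 sites had one, so the 0 was nearly set by the choice and the classes were not screened equally.

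The 12 hottest CAST-cross-only B6-chromosome hotspots had heats from 447.4 to 597.3 and lay on 9 autosomes. The hottest, at position 53353919 of chromosome 3, was 92240 bp from Lhfp, a gene of the tetraspan membrane protein family, and its B6 share was 0.995. The second, with a heat of 570.6, was in an intron of Fbxl13, which encodes an F-box protein, at position 21573796 of chromosome 5. Chromosome 13 held 4 of the 12. There, a site in an intron of Edil3, an extracellular matrix protein that binds integrins, had a heat of 542.2. A site 66183 bp from Rnf144b, a ubiquitin ligase, had 517.4. A site in an intron of Atg10, an enzyme of the autophagy conjugation system, had 479.9, and a site 209446 bp from Isl1, a homeodomain transcription factor, had 453.7.

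A site 127009 bp from Adamts20, a secreted metalloprotease, on chromosome 15 also had a heat of 517.4, but with a B6 share of 0.923, the lowest of the 12, and with a hotspot centre of a removal map 2883 bp away. The other shares of the 12 were at least 0.975. The remaining sites lay near Ccser2 (505.8) and Abca13 (474.4), in an intron of Ttc29 (473.1), a gene of the sperm flagellum, and in annotated UTRs of Cldnd1 (467.3) and Arfgef3 (447.4). The first-ranked word was present at 2 of the 12, those of Adamts20 and Atg10. With high-input sites left out, the 5 hottest symmetric sites lay at Tpd52, Atp2b1, Plrg1, Mycbp2 and Arhgap15, with heats from 552.6 to 590.3. The 46 autosomal genes of a list of meiosis genes held 1 of the 1513 CAST-cross-only B6-chromosome sites and 19 of the 12102 symmetric sites. The share over all hotspots of the map is not given here, and counts this small do not tell the classes apart. The CAST-cross-only B6-chromosome site was in an intron of Mlh3, which acts in crossover resolution, at position 85247176 of chromosome 12. It had a heat of 240.8 and a B6 share of 0.971, and it held the first-ranked word.

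The 1513 sites were spread over all 19 autosomes at 0.614 per Mb, against 4.91 per Mb for symmetric sites. On most autosomes their share of both classes together was close to the overall 11.1%, and the Wilson 95% interval included that value on 17 of 19. Chromosome 13 lay above it, with 99 CAST-cross-only B6-chromosome sites and 606 symmetric sites (14.04%, interval 11.7 to 16.8%), or 0.822 and 5.03 per Mb. Chromosome 14 lay below it, with 49 and 606 (7.48%, interval 5.70 to 9.75%), or 0.392 and 4.85 per Mb. These intervals were not adjusted for the 19 autosomes compared. Chromosomes 13 and 14 thus held the same number of symmetric sites, while the CAST-cross-only B6-chromosome sites differed by 99 against 49. With the symmetric sites limited to those unmatched in the same 3 maps, chromosome 13 had 20.5% and chromosome 14 had 10.6%, against 15.9% overall.

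**Figure D3:**
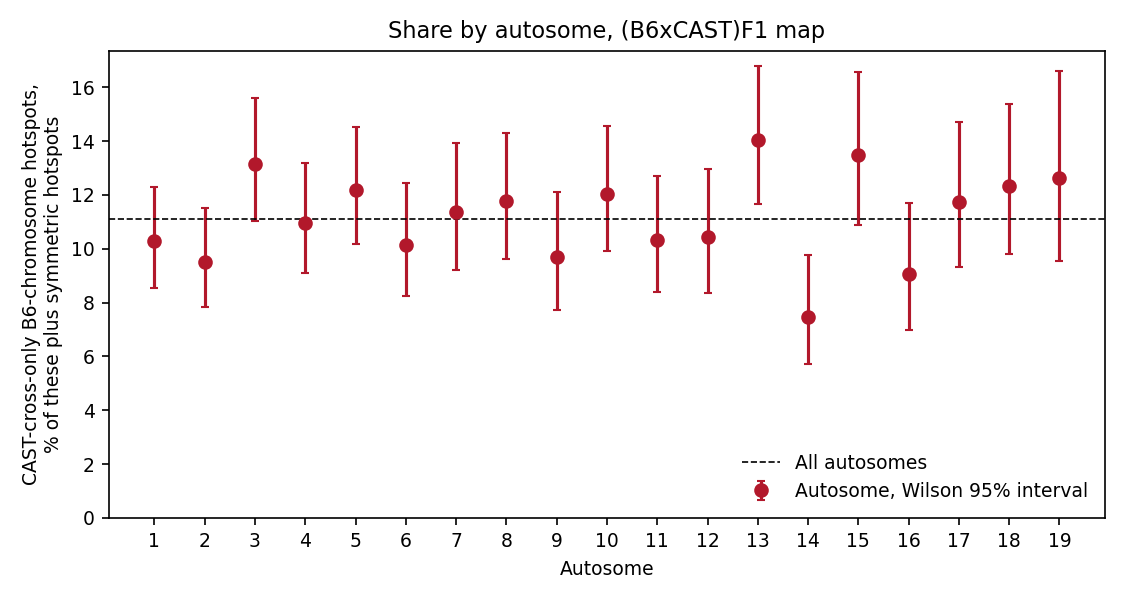
CAST-cross-only B6-chromosome hotspots as a percentage of these plus symmetric hotspots on each autosome (points) with Wilson 95% intervals (bars), the dashed line marking 11.1% over all autosomes. The interval of chromosome 13 (14.04%) lies above the line, that of chromosome 14 (7.48%) lies below it, and the other 17 include it.

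The few sites of chromosome 14 were not colder. Their median heat was 161, against 31.55 for the symmetric sites there, and this ratio of 5.10 was the highest of any autosome. On chromosome 13 the medians were 115.5 and 29.35. Chromosome 17, which carries Prdm9 itself, had 64 CAST-cross-only B6-chromosome sites and 481 symmetric sites (11.7%), with median heats of 119.95 and 37.7 and the lowest ratio, 3.18. In 235 windows of 10 Mb with at least 30 sites of both classes, the median share was 10.96% (quartiles 7.44 and 14.3%). The highest share was in the first 10 Mb of chromosome 13, where 14 of the sites lay beside 32 symmetric ones (30.4%, interval 19.1 to 44.8%). The windows from 40 to 50 Mb of chromosome 6 and of chromosome 15 held 0 of these sites beside 39 and 41 symmetric ones, which leaves room for shares of up to 8.97% and 8.57% by their Wilson intervals. These windows were picked as the extremes of the 235, and their intervals were not adjusted for that choice.

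Along the chromosomes, the CAST-cross-only B6-chromosome hotspots lay more often near the distal end. Mouse autosomes have the centromere at the start of the sequence, and each was divided into 5 equal segments from there. The last segment held 419 of the 1513 sites (27.7%, interval 25.5 to 30.0%), 175 of the 730 CAST-chromosome sites (24.0%, interval 21.02 to 27.2%) and 2593 of the 12102 symmetric sites (21.4%, interval 20.7 to 22.2%). In the hottest quartile of the map the last segment held 27.5% of the CAST-cross-only B6-chromosome sites and 18.4% of the symmetric sites. The share was higher than that of the symmetric sites on 15 of 19 autosomes, and lower on chromosomes 7, 9, 14 and 17. On chromosome 14 it was 6 of 49 sites (12.2%). The 736 removed sites with a share above 0.9 had 27.6% in the last segment. The interval of the CAST-chromosome sites overlapped both that of the 1513 sites and that of the removed sites, and no test of these differences was made. Heat did not follow the same course: the median in the last segment was 116.7, and in the other 4 it ran from 113.6 to 130.2.

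**Figure D4:**
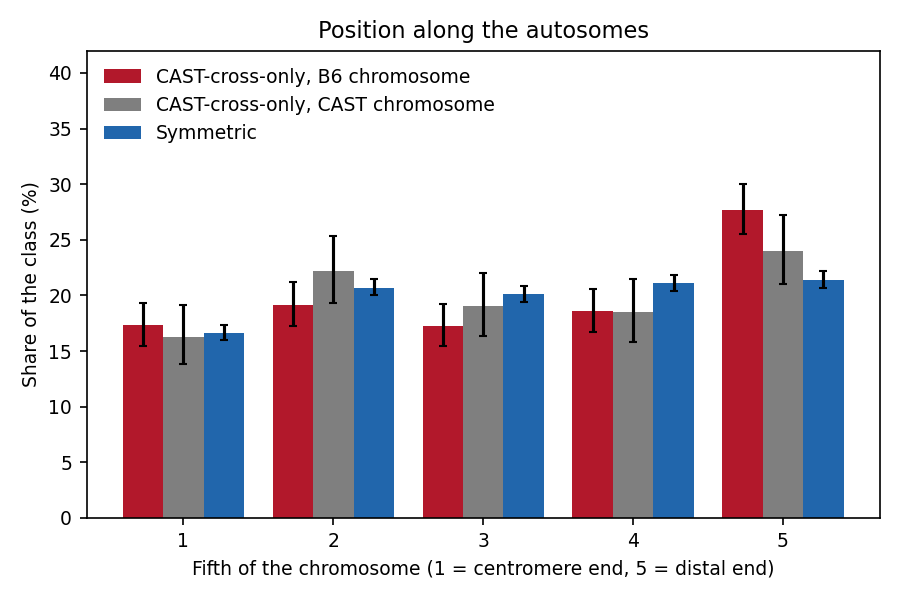
Percentage of each class in 5 equal segments of the autosomes from the centromere end (1) to the distal end (5), with Wilson 95% intervals. CAST-cross-only B6-chromosome hotspots reach 27.7% in segment 5, CAST-cross-only CAST-chromosome hotspots 24.0% and symmetric hotspots 21.4%.

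At short distances, hotspots with the same chromosome preference were neighbours more often than the background of the map. The nearest other hotspot of the map was within 10 kb for 214 of the 1513 sites (14.1%) and for 1906 of the symmetric sites (15.7%). Of the neighbours with a B6 share, 64 of 210 (30.5%, interval 24.6 to 37.0%) beside CAST-cross-only B6-chromosome sites had a share above 0.9 themselves, against 209 of 1804 (11.6%, interval 10.2 to 13.1%) beside symmetric sites. Sites of a class that were each other's nearest hotspot were counted from both ends, which these intervals do not allow for. The proportion was lower at longer distances: 36.8% up to 5 kb, 26.0% from 5 to 10 kb, 18.1% from 10 to 50 kb and 13.1% beyond. Beside symmetric sites it was 10.2%, 12.7%, 13.5% and 13.6% over the same distances, and the background over the map was 13.2%. The same held in mirror image on the other chromosome, where 47 of 134 neighbours of CAST-cross-only CAST-chromosome sites had a share below 0.1 (35.1%) and 7 had one above 0.9 (5.22%). The closest pair of centres in the map was 609 bp apart, and the part of reads counted for both neighbours at short distances was not tested.

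The sites lay in introns and between genes about as often as symmetric sites did. Of the 1513, 49.4% were intergenic and 45.3% intronic by GENCODE M21 protein-coding genes, against 49.8% and 45.2% of symmetric sites. Coding exons held 20 of the sites (1.32%, interval 0.857 to 2.03%), against 2.07% of symmetric sites (interval 1.83 to 2.34%) and a background of 2.04% of the map. UTRs held 45 (2.97%, interval 2.23 to 3.96%), against 1.93% of symmetric sites (interval 1.70 to 2.19%) and a background of 2.09%. The intervals overlapped for coding exons and did not for UTRs. UTRs held 2.60% of the CAST-cross-only CAST-chromosome sites (interval 1.67 to 4.03%), which overlaps the interval of the 1513. A transcription start lay within 1000 bp of 40 sites (2.64%, interval 1.95 to 3.58%), against 2.02% of symmetric sites (interval 1.78 to 2.28%) and a background of 2.14% of the map. The intervals for transcription starts overlapped. The central 200 bp had a GC content of 43.7% in the CAST-cross-only B6-chromosome sites and 40.5% in symmetric sites, and 16.4% and 21.5% of the bases were repeats. Within the hottest quartile these values were 43.8% and 42.4% GC, and 13.98% and 15.2% repeats. Over all heats, the CAST-cross-only CAST-chromosome sites had 43.6% GC and 18.9% repeats, so the GC content was not particular to the 1513 sites. Flanks of the 1513 sites had 43.8% GC, as much as their centres, and those of symmetric sites had 42.5%.

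The first-ranked word, AGGTCACA, was present in the central 200 bp of 43 of 827 sites on odd-numbered autosomes (5.20%), where it was chosen. On even-numbered autosomes, which had no part in the ranking, it was present in 36 of 686 sites (5.25%, interval 3.81 to 7.18%), against 0.656% in flanks of the same length. On the same autosomes it was present in 1.43% of CAST-cross-only CAST-chromosome sites and 3.34% of symmetric sites. Symmetric sites unmatched in the 3 maps had 4.55% there (interval 3.94 to 5.24%), which overlaps the interval of the 686 sites. Over all autosomes, those used for the choice included, the word was present in 79 of the 1513 (5.22%), 12 of the 730 CAST-chromosome sites (1.64%) and 387 symmetric sites (3.20%), and the background of the map was 2.89%. In the 8 maps without the CAST allele it was present in 0.943% of hotspots (B6/B6) to 1.54% (PWD/PWD). All letters were those of the B6 reference. For the CAST-chromosome sites the letters of the broken chromosome were therefore not read, and a word present on the CAST chromosome alone was missed. Their values cannot show how frequent the word was on the chromosome that was broken. A match is a description of the letters and not a binding site.

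The word was as frequent in hot symmetric sites that were also unmatched in the 3 maps. In the hottest quartile, with the odd-numbered autosomes on which it was chosen included, it was present in 5.90% of CAST-cross-only B6-chromosome sites (interval 4.49 to 7.72%), 6.498% of symmetric unmatched sites (interval 5.23 to 8.05%) and 4.28% of all symmetric sites. It was therefore not particular to sites broken on the B6 chromosome alone. Any of the 10 highest-ranked words, several of which overlap one another by most of their letters, was present in 154 of the 686 sites on even-numbered autosomes (22.4%, interval 19.5 to 25.7%), against 7.29% in their flanks. Over all autosomes, those of the ranking included, 23.4% of CAST-cross-only B6-chromosome sites held such a word. The values were 13.4% for CAST-chromosome sites, 14.6% for symmetric sites and 16.8% for symmetric unmatched sites, with a background of 14.1%. In the hottest quartile they were 27.6% for CAST-cross-only B6-chromosome sites (interval 24.7 to 30.7%) and 25.3% for symmetric unmatched sites (interval 22.9 to 27.9%), and these intervals overlapped. The value of the CAST-chromosome sites again rests on B6 letters. So most of the 1513 sites held none of these words. Sites with the first word had a median heat of 149.9 (n = 79) and those without it 118.85 (n = 1434).

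**Figure D5:**
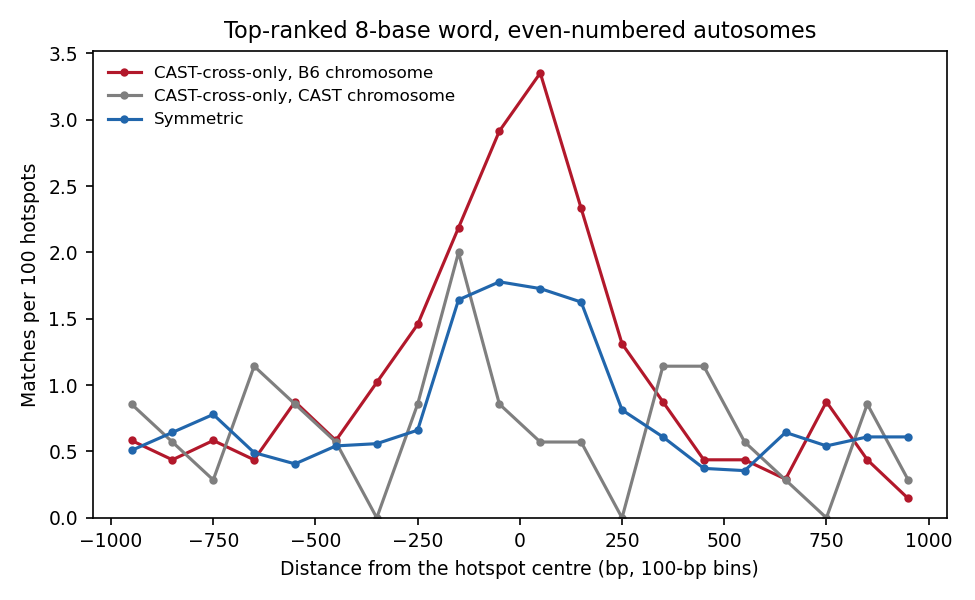
Matches to the first-ranked 8-base word on either strand per 100 hotspots of even-numbered autosomes, in 100-bp bins of distance from the hotspot centre. CAST-cross-only B6-chromosome hotspots reach 3.35 per 100 in the bin just after the centre (23 matches), against 0.571 for CAST-cross-only CAST-chromosome hotspots (2 matches) and 1.73 for symmetric hotspots (102 matches). All letters are those of the B6 reference, also for the CAST-chromosome hotspots.

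The letters beside the word were shared too. At the 43 sites on odd-numbered autosomes the ninth base after the word was C in 35 (81.4%), and at the 36 sites on even-numbered autosomes in 27 (75%, interval 58.9 to 86.2%). At symmetric unmatched sites with the word it was C in 216 of 340 (63.5%), and in the B6/B6 map in 41 of 160 (25.6%). The sixth base after the word was A in 52.8% of the sites on even-numbered autosomes, 56.8% of symmetric unmatched sites and 32.5% of those in the B6/B6 map. Both letters together were present at 18 of 36, 146 of 340 and 10 of 160 sites.

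Almost none of the 1513 sites were hotspots of the 5 maps not used in the choice: 44 (2.91%, interval 2.17 to 3.88%) had a centre within 1000 bp in at least 1 of them, and 1469 in none. So 97.1% of the sites were listed in the (B6xCAST)F1 map alone at this match distance. Absence from the 3 removal maps was set by the choice. The share found in at least 1 of the 5 maps is not given here for other classes, so 97.1% has no background beside it. At the same time, 70 of the 1513 had a centre of a removal map between 1000 and 2000 bp away. The reciprocal hybrid, which carries the same strains and Prdm9 alleles as the infertile one used in the choice, held 2 sites (0.132%), against 29.7% of all hotspots of the map. The rescue hybrid held 20 (1.32%), against 7.41% of the map. The Humanized/PWD hybrid held 25 (1.65%), against 9.39%. The Humanized/Humanized mice held 32 (2.12%, interval 1.502 to 2.97%), against 2.18%, and the B6/Humanized mice held 28 (1.85%), against 12.4%. The symmetric sites unmatched in the same 3 maps had 0.175%, 1.37%, 1.56%, 1.67% and 1.31% in these 5 maps in the same order. The intervals of the CAST-cross-only B6-chromosome sites overlapped those of the symmetric unmatched sites in each map, so a low rate of recurrence was not particular to them.

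A site is called recurring here if another map had a centre within 1000 bp. The median distance was 352 bp in the rescue hybrid, 327 bp in the Humanized/PWD hybrid and 155 bp in the reciprocal hybrid. It was 386.5 bp in Humanized/Humanized mice and 474.5 bp in B6/Humanized mice. Whether such centres mark the same site or lie near it by coincidence was not tested. The hotspot found there was symmetric about as often as other hotspots of its map. Of 17 recurring sites with a B6 share in the rescue hybrid, 11 were symmetric, against 59.8% of all hotspots of that map with a share. Of 22 in the Humanized/PWD hybrid, 15 were, against 59.8% of that map. Many of these sites recurred in both hybrids, so the counts are not independent of each other, and both are small. The median heat of the recurring sites was 53.05 in the rescue hybrid, 37.9 in the Humanized/PWD hybrid, 60.45 in Humanized/Humanized mice and 41.4 in B6/Humanized mice, against medians of 57.8, 34.5, 55.7 and 46.3 for those whole maps. In the reciprocal hybrid the 2 recurring sites had a median of 9.45, against 37.7 for the whole map. The hottest recurring site was in an intron of Tiam1, an exchange factor for the GTPase Rac, with a heat of 383.9 in the (B6xCAST)F1 map and 35.7 in the B6/Humanized map, where the centre lay 946 bp away. A site in a coding exon of Vps13a, a lipid transfer protein, had a heat of 294.6 and recurred in the Humanized/PWD and Humanized/Humanized maps with 12.6 and 29.8. A site in an intron of Tcf7l2, a Wnt pathway transcription factor, had 290.0, and recurred in the rescue and Humanized/PWD maps with heats of 23.8 and 23.9 and B6 shares of 0.318 and 0.211. Heats of different maps are each on their own scale.

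H3K4me3 was measured in bins centred on hotspots of other genotypes, so it could be read for recurring sites alone. In the rescue hybrid, the ChIP over input ratio at the 20 bins was 0.876 and 0.816 times that of all bins in its replicates. In Humanized/Humanized mice it was 0.952 and 0.976 times at 32 bins, in what the file header calls pseudoreplicates. In the reciprocal hybrid it was 0.287 and 0.316 times at 2 bins. The deposited enrichment, the authors' ratio to local background, ran the other way in 2 of the 3 tables. Its median was 0.993 at the recurring bins of the rescue hybrid against 0.959 over all its bins, 1.003 against 0.871 in Humanized/Humanized mice, and 0 against 0.419 in the reciprocal hybrid. So these measures gave no common direction for H3K4me3 at the recurring sites. No H3K4me3 table of the (B6xCAST)F1 hybrid was used here, so the mark at the other 1469 sites is not analysed here.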

How the data were processed

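All values came from deposited tables. The submitters' processing notes name BWA, SAMtools and bedtools without versions, and mm10 and mm9 as builds, and the mm10 tables were used. They give no role for each tool, and the program that called hotspots is not given in the sources used here. Heat, as deposited, is a DMC1 signal made by the authors on a relative scale that no source used here defines. The B6 share is a fraction from 0 to 1 deposited by the authors, without its number of informative reads. H3K4me3 counts are ChIP and input fragments per bin, per the file headers. The deposited enrichment is a ratio to local background, per the file headers. The authors' p-value was not used for any result.

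Computation used pysam 0.24.0, pandas 2.3.3, NumPy 2.4.6, SciPy 1.17.1 and Matplotlib 3.10.9 in Python 3.11.15, with GENCODE M21 protein-coding genes. Centres were matched to the nearest centre of another map within 1000 bp. Words of 8 bases were ranked with a pseudocount of 5. Matching and ranking were tested on simulated data. Intervals are Wilson intervals at 95% and cover the counting of hotspots only. Genes were named for the 12 hottest sites, the 5 hottest symmetric sites, the 3 hottest recurring sites and sites in a list of meiosis genes extended by 2000 bp, leaving out high-input sites. Genes beside printed sequences were named because the sequence was shown. The sites, lists and words were chosen with earlier results of these data known. Alternatives changed the match distance, the limits on the B6 share, the maps used for removal, the heat range, the window for words and the distance to a transcription start.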

Additional observations from a re-analysis of the deposited data

How the results depend on the processing

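The number of CAST-cross-only B6-chromosome hotspots depended on the limit of the B6 share. It was 1008 at a limit of 0.95 and 2143 at 0.8, against 1513. Under the other alternatives it ran from 1300 to 1542. The median heat ratio to symmetric sites was above 1 under all 9 alternatives, and ran from 1.56 among hotspots at or above the median heat of the map to 4.86 at the limit of 0.95. It was 2.86 at a limit of 0.8 and 4.22 against symmetric unmatched sites. Leaving out high-input sites was chosen after seeing the data and changed neither value. Few of the 1513 sites had an H3K4me3 bin by which they could be flagged, so this alternative could hardly change their number.

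With a match distance of 2000 bp, the share of sites found was 1.45% for the reciprocal hybrid, 2.45% for the rescue hybrid, 3.17% with Humanized/PWD and 3.57% with Humanized/Humanized, which had 1.39% at 500 bp. Within 2000 bp of a transcription start lay 5.42%. The median autosome had 0.432 sites per Mb at the limit of 0.95, against 0.647. The first word was present in 2.48% of sites on even-numbered autosomes in a window of 100 bp and in 8.02% in one of 300 bp, where the wider window holds more bases. Leaving out replicates in turn gave H3K4me3 ratios of 0.816 to 0.876 in the rescue and 0.287 to 0.316 in the reciprocal hybrid. No paired analysis was possible because each DMC1 map came from 1 library and no result came from a test. The precision of the B6 shares of cold sites is limited by read numbers that are not given.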
